A study of Mus musculus with 9 samples.

Results

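The heat shock proteins and their J-domain cochaperones were followed in mouse liver after acetaminophen. Members were all genes whose symbols begin with the names of the Hspa, Hspb, Hspd, Hspe, Hsph and Hsp90 families or of the Dnaja, Dnajb and Dnajc families and that had at least 10 raw counts in at least 3 libraries. Of 28956 symbols in the count table, 77 carried such a name and 69 passed the count minimum. The members just inside it were Dnajb13, with 10 counts or more in 5 libraries, and Dnajb7 and Hspe1-ps3, each with that many in 6. The members just outside it were Hspb2, with 2 such libraries, and Hspb9 and Hspd1-ps4, with 1 each, and Dnaja1-ps, Dnajb8, Dnajc6, Hspe1-ps2 and Hspe1-ps5 had 0.

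Messenger RNA was sequenced from a piece of whole liver in 9 libraries of C57BL6J mice aged 8 weeks, and all of them received 300 mg/kg of APAP (acetaminophen) into the peritoneum. The 3 libraries of the APAP group had no cells. The 3 of the APAP_MSC group (MSC group below) and the 3 of the APAP_HDF group (HDF group below) received 500000 MSC or HDF cells into a vein 90 min after APAP. The labels do not spell out MSC or HDF, and the series title gives 24 h. No liver without APAP is among these groups, so every value is from a liver after APAP, and no control for injection without cells is named. The labels call the cell type hepatocytes, although the extraction was from a liver piece that also holds immune, endothelial and stromal cells. They do not say that libraries came from separate animals, and p-values then measure only the spread between these samples, which may be technical. Library numbers 1 to 3 follow column order and pair nothing. APAP library 3 stood apart from the other APAP libraries in the cytosolic chaperones. For Hspa8, Hsph1, Dnajb1, Dnaja1 and Dnajb2, fold changes against APAP are given with and without it.

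Heat shock proteins are chaperones that hold and refold other proteins. The Hsp70 proteins bind and release clients in a cycle driven by ATP, J-domain proteins bring clients to Hsp70 and start its ATP hydrolysis, Hsp110 proteins exchange the nucleotide, Hsp90 finishes the folding of kinases and receptors, and small heat shock proteins hold unfolded chains without ATP. Each compartment has its own set: heat shock factor HSF1 drives the inducible cytosolic genes, the unfolded protein response drives those of the endoplasmic reticulum (ER), and Hspa9, Hspd1 and Hspe1 serve the mitochondrial matrix. Acetaminophen injury in hepatocytes starts with a reactive metabolite that binds proteins, many of them mitochondrial.

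Short promoter stretches are shown first, picked because they hold a match to a known element of the heat shock or ER stress response. They come from RefSeq annotation on build GRCm38.p6, whereas the submitters' processing notes name mm39 and GRCm39 and the count table holds no coordinates. The RefSeq table matched 53 of the 69 members, with 69 promoter windows of 250 bases before the start. Both strands were searched for the heat shock element of 2 units (GAANNTTC, with N for any base) and its longer form of 3 units, which contains it and adds any 2 bases and a further GAA. They were also searched for the ER stress element (CCAAT, any 9 bases, then CCACG) and the ER stress element II (ATTGG, any 1 base, then CCACG). Capitals mark the fixed letters of a match. Hspa1a (chr17:34972157-34972276, minus strand) and Hspa1b (chr17:34959239-34959358, minus strand) are shown because they are near-identical copies, Dnaja1 (chr4:40722333-40722362, plus strand) as another inducible gene, and Hspe1 (chr1:55088053-55088082, plus strand) because 4 alternating units follow one another there. Hspa5 (chr2:34772020-34772049, plus strand), Hsp90b1 (chr10:86705632-86705661, minus strand) and Dnajc3 (chr14:118937822-118937851, plus strand) carry the ER stress element.
Hspa1a: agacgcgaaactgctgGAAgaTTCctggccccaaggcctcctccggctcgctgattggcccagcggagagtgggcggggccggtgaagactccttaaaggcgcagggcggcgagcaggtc
Hspa1b: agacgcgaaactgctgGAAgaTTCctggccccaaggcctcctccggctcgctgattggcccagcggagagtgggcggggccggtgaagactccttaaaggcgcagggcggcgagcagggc
Dnaja1: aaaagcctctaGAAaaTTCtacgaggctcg
Hspe1: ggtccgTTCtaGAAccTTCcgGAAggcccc
Hspa5: cttcaCCAATcggaggcctCCACGacgggg
Hsp90b1: caagcCCAATcgcaaggagCCACGcttcgg
Dnajc3: cacaaCCAATcagcgccaaCCACGacccgg

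The 250 bases before the starts of Hspa1a and Hspa1b were identical at 247 positions (98.8%), and in both the first capital lies 104 bases before the start. The 3-unit heat shock element was found in 0.466% of all 32851 promoter windows of that length and in 0.514% of genes. Among the members it was in Hspd1, Hspe1 and Dnajb6. The 2-unit form was found in 6.69% of all windows, and 7.73% of genes had it in at least 1 window. Members with it were Dnaja1, Dnaja4, Hspa1a, Hspa1b and Hspb1 (5 of the 9 inducible genes in the table, and 5 of 15 of their windows). Others were Hspd1 and Hspe1 (2 of 7 mitochondrial genes), and Dnajb6, Hspb6 and Dnajc27. The Hspe1 stretch shown above lies within the matching Hspd1 window, so Hspd1 and Hspe1 share the same site for both forms. The ER stress element was found in 0.113% of windows and in 0.13% of genes. It was in 3 of the 11 ER genes in the table, Hspa5, Hsp90b1 and Dnajc3. No difference between the classes was tested. Hsp90b1 had 2 matches, of which 1 is shown. The ER stress element II was in 0.0304% of windows and in 0 members. A match is a description of letters and not a binding site, and a window without one says only that these letters are not in it. Hspd1 and Hspe1 lie head to head on opposite strands, with Hspd1 starts 95 and 216 bases from the Hspe1 start. Whether counting used strand is not given in the sources used here, so reads from an overlap of the pair cannot be told apart.

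Per length, the most abundant members came from the ER and the constitutive cytosolic set. Levels are CPM, the counts of a gene per 1000000 counts of the library after TMM scaling, and for comparisons between genes they were divided by the kilobases of exon in the annotation. Hspa5 (BiP, the Hsp70 of the ER) was highest at 459 CPM per kb, followed by Hsp90ab1 (constitutive Hsp90) at 387, Hsp90b1 (GRP94, the Hsp90 of the ER) at 332 and Hspa8 (constitutive Hsc70) at 237 CPM per kb. The mitochondrial pair Hspd1 (Hsp60) and Hspa9 (mortalin) came next at 178 and 162 CPM per kb. Of the inducible class, Hspb1 and Hsp90aa1 followed at 94.8 and 94.7 CPM per kb, and Hspa1b and Hspa1a were far lower at 16.1 and 6.57. The length joins all annotated exons of a gene and can exceed that of its transcript, so ranks between genes are rough. All 69 members together took 0.881% to 1.27% of the counts of a library. The ER class held 0.394% to 0.549% of counts, the mitochondrial class 0.142% to 0.167% and the inducible class 0.0734% to 0.126%.

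Few members differed between groups past the test. All 69 members were among the 17582 genes tested with edgeR's quasi-likelihood test, with p-values adjusted by the Benjamini-Hochberg method over all genes and called at an adjusted p under 0.05. MSC against APAP gave 4 called members of 69, 2 higher and 2 lower, where 6.19% of all genes were called (2.68% higher and 3.51% lower). An unadjusted p under 0.05 was reached by 11 members (22.6% of all genes), and 15 had groups that did not overlap (28.5% of all genes). HDF against APAP gave 0 called members, where 0.0% of genes in either direction were called and 9 members had an unadjusted p under 0.05 (8.29% of all genes did). There 11 members did not overlap (11.7% of all genes). MSC against HDF gave 5 called members, 4 higher and 1 lower in the MSC group, where 8.79% of genes were called (4.78% higher and 4.0% lower). In it 18 members had an unadjusted p under 0.05 (25.5% of all genes) and 29 did not overlap (33.2% of all genes). The share of members called was thus near that of all genes in each comparison. By compartment, the 4 members called higher in the MSC group than in the HDF group belong to the 10 mitochondrial members, and 0 of the 13 ER members and 0 of the 10 inducible members were called in any of the 3 comparisons. The first 2 comparisons share the APAP libraries, and the third shares a group with each of them.

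**Figure D1:**
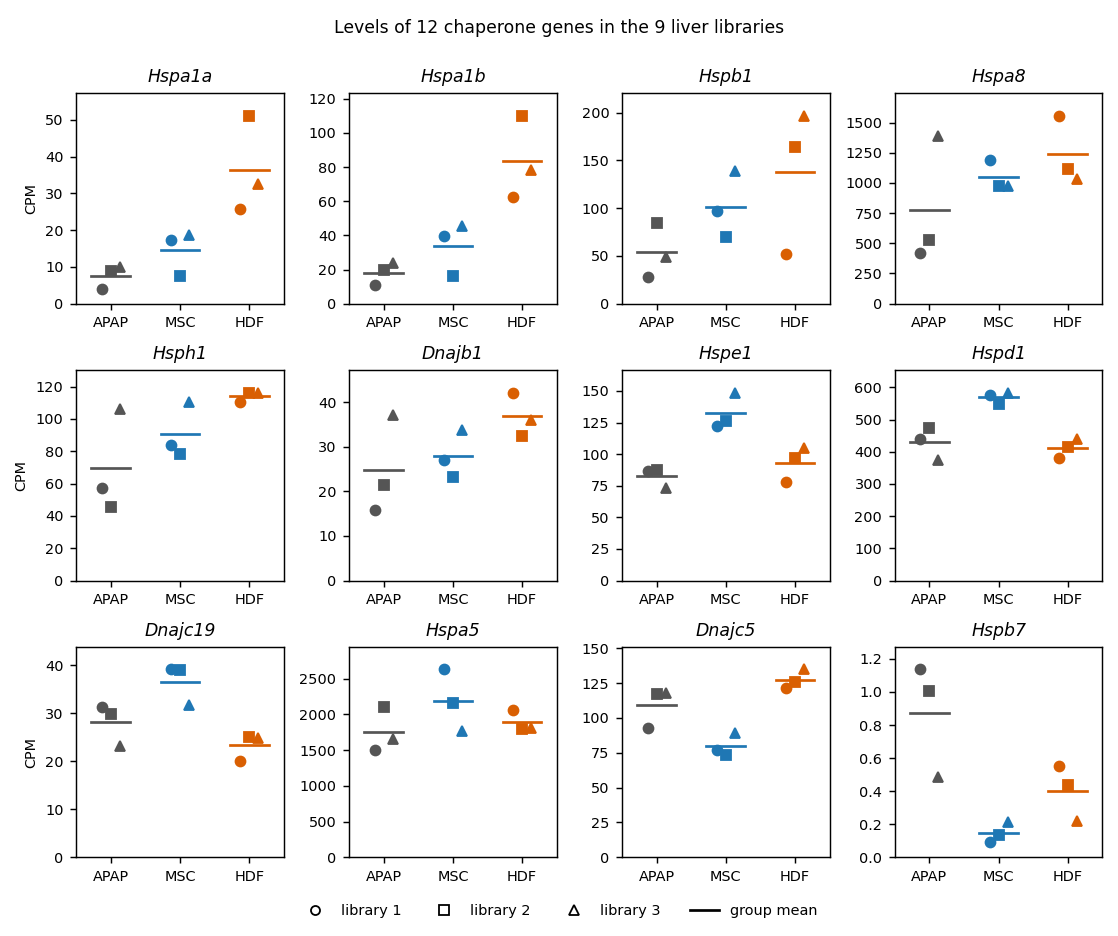
Level in CPM (vertical axis, from 0) of 12 chaperone genes in each library of the APAP, MSC and HDF groups; symbols mark libraries 1 to 3 and lines the group means. Hspe1 lies between 122 and 149 CPM in the MSC group, above all 6 other libraries, while Hspa8 in APAP library 3 (1387 CPM) stands far above the other APAP libraries.

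Of the 10 mitochondrial members, 1 was called higher in the MSC group than in the APAP group and 4 were called higher than in the HDF group. Against APAP, the log2 fold changes of all 10 were above 0 (48.9% of all genes were), from 0.032 to 0.68, with a median of 0.24 beside -0.0085 over all genes. The groups did not overlap, with MSC higher, for 6 of the 10 (13.7% of all genes). Against HDF, 8 of 10 were above 0 (47.7% of all genes), the median was 0.25 beside -0.020 and 6 of 10 did not overlap (16.8% of all genes). HDF against APAP had a median of 0.021 with 6 of 10 above 0 (49.1% of all genes). Hspe1 is Hsp10, the lid of the Hsp60 folding chamber. Hspe1 measured 87.04, 87.7 and 73.1 CPM in the APAP libraries, 122, 126 and 149 CPM after MSC and 78.1, 96.7 and 104 CPM after HDF. All MSC libraries lay above all of the other 6. Hspe1 rose in the MSC group against APAP (log2 fold change 0.68 ± 0.13 (SE), adjusted p = 0.0176) and against HDF (log2 fold change 0.51 ± 0.13 (SE), adjusted p = 0.0354). Without MSC library 2 or 3 the call against APAP was lost (highest adjusted p = 0.0771 over the 9 fits that left out 1 library), and against HDF it was lost without any MSC library or without HDF library 1 or 2 (highest adjusted p = 0.101).

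Hspd1 is Hsp60, the chamber itself. Hspd1 measured 441, 474 and 375 CPM in the APAP libraries, 576, 549 and 584 CPM after MSC and 381, 415 and 441 CPM after HDF. Here too the MSC libraries lay above the others, which overlapped each other. It was higher in MSC than in HDF (log2 fold change 0.47 ± 0.12 (SE), adjusted p = 0.0341), and it missed the threshold against APAP (log2 fold change 0.41 ± 0.12 (SE), adjusted p = 0.0666), where DESeq2 called it with an adjusted p of 0.0153. The call against HDF was lost without any MSC library or without HDF library 1 or 2 (highest adjusted p = 0.105). The ratio of Hspd1 to Hspe1 counts was 3.93 to 5.41 over the 9 libraries. A pseudogene copy, Hspd1-ps3, measured 13.04, 12.2 and 8.03 CPM in the APAP libraries, 14.98, 15.3 and 15.2 CPM after MSC and 9.94, 9.69 and 11.7 CPM after HDF. It was higher in every MSC library than in the other 6, with a log2 fold change of 0.54 ± 0.17 (SE; adjusted p = 0.0682) against HDF. Its reads and those of Hspd1 may be shared between copies, so both values are uncertain to that extent.

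Dnajc19 and Dnajc15 are J proteins of the inner membrane that work with the import motor driven by Hspa9. Dnajc19 measured 31.3, 29.8 and 23.1 CPM in the APAP libraries, 39.1, 38.9 and 31.7 CPM after MSC and 20.1, 25.01 and 24.8 CPM after HDF. MSC libraries lay above all others, narrowly so for MSC library 3 against APAP library 1. Dnajc19 was called higher in MSC than in HDF (log2 fold change 0.65 ± 0.14 (SE), adjusted p = 0.018) and was not called against APAP (log2 fold change 0.38 ± 0.14 (SE), adjusted p = 0.133). The call was lost without MSC library 1, MSC library 2 or HDF library 1 (highest adjusted p = 0.0924). Dnajc15 measured 20.5, 22.01 and 19.3 CPM in the APAP libraries, 25.6, 26.5 and 22.5 CPM after MSC and 16.5, 20.6 and 18.4 CPM after HDF. The MSC libraries again exceeded all others, and the call against HDF (log2 fold change 0.43 ± 0.11 (SE), adjusted p = 0.0414) was lost without MSC library 1 or 2 or HDF library 1 or 3 (highest adjusted p = 0.161). The processed copy Dnajc19-ps gave 0.49 against HDF with an adjusted p of 0.188, and reads may be shared with Dnajc19.

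The Hsp70 of the matrix and its J protein were not called in any comparison. Hspa9 measured 668, 678 and 659.5 CPM in the APAP libraries, 720.3, 747 and 713 CPM after MSC and 655, 701 and 738 CPM after HDF. Its MSC libraries lay above the APAP libraries and overlapped the HDF libraries, with a log2 fold change of 0.12 ± 0.10 (SE; adjusted p = 0.547) against APAP. Dnaja3 (Tid1), the J protein that serves Hspa9, measured 102, 133 and 109.8 CPM in the APAP libraries, 115, 121 and 116 CPM after MSC and 109, 122 and 124 CPM after HDF. All 3 groups overlapped, and the log2 fold change against APAP was 0.032 ± 0.11. The remaining members were not called in any comparison. Against APAP they gave 0.25 ± 0.14 for Dnajc4, 0.062 ± 0.10 for Dnajc11, 0.10 ± 0.19 for Dnajc28 and 0.23 ± 0.13 for Dnajc30, and against HDF 0.30 ± 0.14, -0.0036 ± 0.10, 0.090 ± 0.19 and 0.20 ± 0.13 in the same order. Dnajc4 and Dnajc30 did not overlap between MSC and HDF. The called mitochondrial members were therefore Hsp60, Hsp10 and 2 J proteins of the inner membrane.

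**Figure D2:**
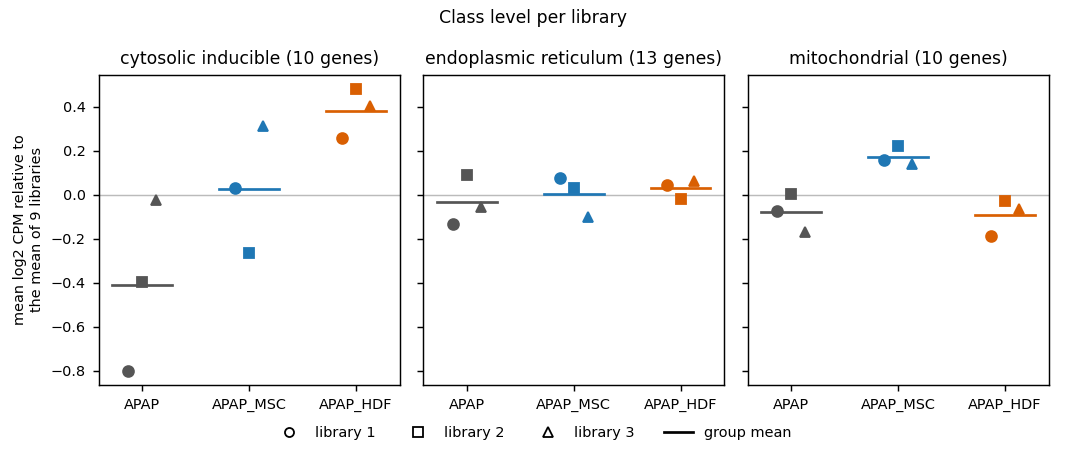
Class level in each library: the mean over a class's genes of log2 CPM relative to that gene's mean over the 9 libraries (vertical axis, log2 units), for 10 inducible, 13 ER and 10 mitochondrial genes; lines are group means. The mitochondrial class is at 0.14 to 0.22 in the MSC libraries and at 0.0059 or below in the others, the inducible class runs from -0.80 to -0.026 within the APAP group alone, and the ER groups overlap.

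The inducible cytosolic members had their highest class level in the HDF group, with a large spread between libraries, and none was called. HDF against APAP gave a class median of 0.50 beside -0.0044 over all genes, 8 of 10 members above 0 (49.1% of all genes), and 4 of 10 with groups that did not overlap and HDF higher (5.66% of all genes). MSC against APAP gave a median of 0.30 with 9 of 10 above 0 (48.9% of all genes), and 0 of 10 without overlap (28.5% of all genes). MSC against HDF gave -0.36, with 3 of 10 lower without overlap (16.4% of all genes) and 1 higher (16.8%). Both Hspa1a and Hspa1b are among the 4 with HDF higher and the 3 with MSC lower. As near-identical copies they may share reads, so the same signal may be counted more than once. Their per-library level spread was 0.29 (pooled within-group SD, log2), against 0.088 for the ER class and 0.075 for the mitochondrial class.

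Hspa1a and Hspa1b encode the same inducible Hsp70 protein, or nearly so. Hspa1a measured 3.91, 8.75 and 9.94 CPM in the APAP libraries, 17.2, 7.57 and 18.7 CPM after MSC and 25.8, 51.1 and 32.4 CPM after HDF. Hspa1b measured 10.9, 19.95 and 23.9 CPM in the APAP libraries, 39.8, 16.3 and 45.4 CPM after MSC and 62.6, 110.1 and 78.2 CPM after HDF. For both, every HDF library lay above every other library, while the MSC libraries overlapped the APAP libraries through MSC library 2. HDF exceeded APAP by a log2 fold change of 2.27 ± 0.45 (SE; adjusted p = 0.457) for Hspa1a and by a log2 fold change of 2.20 ± 0.43 (SE; adjusted p = 0.457) for Hspa1b. These are folds of 4.83 and 4.59 with unadjusted p = 0.000794 and 0.000694 in edgeR's quasi-likelihood test, the smallest of the members in that comparison. DESeq2 called both (adjusted p = 0.00619 and 0.00522) among 69 genes or 0.356% of those it gave an adjusted p, while limma-voom called neither. MSC against HDF gave a log2 fold change of -1.33 ± 0.43 (SE; adjusted p = 0.0953) for Hspa1a and a log2 fold change of -1.30 ± 0.41 (SE; adjusted p = 0.0873) for Hspa1b. That difference was called by limma-voom for both (adjusted p = 0.0469 and 0.0449) and by DESeq2 for Hspa1b (0.0474). The copies kept a ratio of Hspa1b to Hspa1a of 2.16 to 2.77, and together they measured 14.8 to 33.8 CPM after APAP, 23.9 to 64.1 after MSC and 88.4 to 161 after HDF. How reads shared by the copies were counted is not given in the sources used here, so the level of each copy and of their sum is uncertain.

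Hspb1 is the small heat shock protein Hsp27. Hspb1 measured 28.5, 84.4 and 48.5 CPM in the APAP libraries, 96.6, 70.2 and 138 CPM after MSC and 52.1, 164 and 197 CPM after HDF. Its groups overlapped, since HDF library 1 lay below the highest APAP library, and HDF exceeded APAP by a log2 fold change of 1.36 ± 0.53 (SE; adjusted p = 0.583). Hspb8, a small heat shock protein that works with Bag3 in clearing misfolded proteins, measured 92.6, 143 and 149 CPM in the APAP libraries, 146, 144 and 169.8 CPM after MSC and 117, 122 and 128 CPM after HDF. MSC lay above HDF without overlap (log2 fold change 0.32 ± 0.16 (SE), adjusted p = 0.236), opposite to Hspa1a and Hspa1b, and the test was not passed.

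Hsp90aa1 is the inducible cytosolic Hsp90. Hsp90aa1 measured 371, 274 and 366 CPM in the APAP libraries, 299, 292 and 392 CPM after MSC and 473, 447 and 437 CPM after HDF. The HDF libraries lay above all others, by a log2 fold change of 0.42 ± 0.15 (SE; adjusted p = 0.575) against APAP and, as MSC against HDF, a log2 fold change of -0.46 ± 0.15 (SE; adjusted p = 0.0776). DESeq2 called the latter with an adjusted p of 0.0393. Hsph1 is Hsp110, the nucleotide exchange partner of Hsp70. Hsph1 measured 57.4, 45.3 and 106 CPM in the APAP libraries, 83.6, 78.2 and 111 CPM after MSC and 110.3, 116 and 116 CPM after HDF. HDF libraries lay above APAP libraries, the closest being APAP library 3, with a log2 fold change of 0.72 ± 0.27 (SE; adjusted p = 0.582). Without that library the log2 fold change was 1.14, with an adjusted p of 0.0252 in edgeR's quasi-likelihood test. That library was singled out by the levels of such genes, so this call is no separate evidence. Leaving out other libraries took the log2 fold change as low as 0.48.

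Dnajb1 and Dnaja1 are the J proteins that bring clients to cytosolic Hsp70. Dnajb1 measured 15.8, 21.4 and 37.1 CPM in the APAP libraries, 27.1, 23.2 and 33.9 CPM after MSC and 42.2, 32.5 and 36.02 CPM after HDF. Dnaja1 measured 119, 118 and 217 CPM in the APAP libraries, 183, 189 and 204 CPM after MSC and 203, 183 and 176 CPM after HDF. In both, APAP library 3 reached the level of the cell-treated libraries and APAP libraries 1 and 2 lay below all of them. HDF against APAP gave a log2 fold change of 0.57 ± 0.28 (SE; adjusted p = 0.622) for Dnajb1 and a log2 fold change of 0.31 ± 0.21 (SE; adjusted p = 0.698) for Dnaja1. Dnajb4 and Dnaja4, both cytosolic J proteins, gave 0.038 ± 0.15 and -0.23 ± 0.22, and their groups overlapped in every comparison. MSC against APAP gave 0.94 for Hspa1a, 0.89 for Hspa1b, 0.92 for Hspb1, 0.25 for Hspb8, -0.041 for Hsp90aa1 and 0.39 for Hsph1, and then 0.18 for Dnajb1, 0.34 for Dnaja1, 0.13 for Dnajb4 and 0.048 for Dnaja4. Without APAP library 3, Dnajb1 gave 0.60 for MSC and 0.98 for HDF against APAP. Its adjusted p in edgeR's quasi-likelihood test was then 0.0915 and 0.0735. Dnaja1 gave 0.65 for HDF against APAP without that library (adjusted p = 0.0645).

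**Figure D3:**
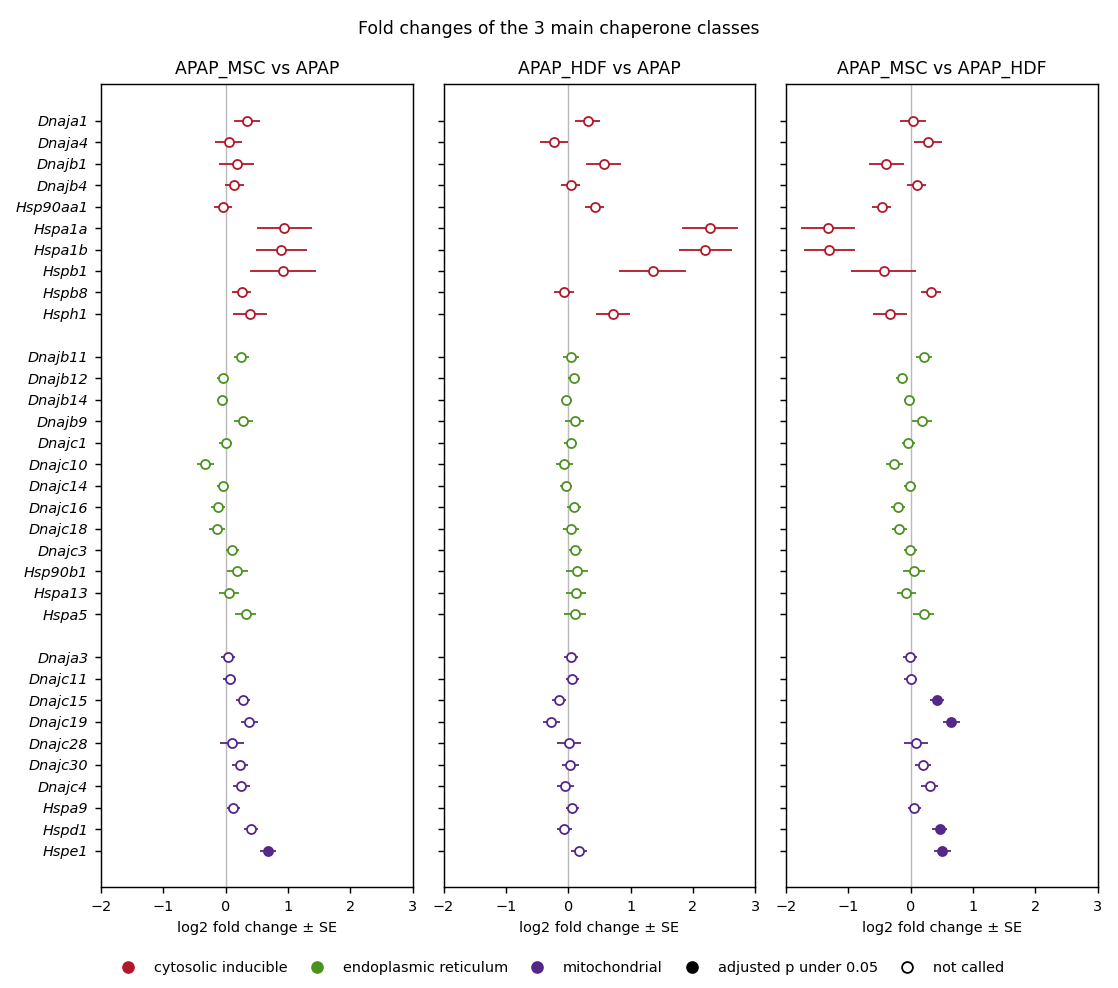
Log2 fold change with its standard error (horizontal axis) of the 10 inducible, 13 ER and 10 mitochondrial members in the 3 comparisons; filled points have an adjusted p under 0.05 in edgeR's quasi-likelihood test. The filled points are Hspe1 against APAP and Dnajc15, Dnajc19, Hspd1 and Hspe1 in MSC against HDF, and the ER members stay between -0.33 and 0.32.

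Within the APAP group, library 3 had higher levels of most cytosolic chaperones than libraries 1 and 2. It was the highest of the 3 APAP libraries for 8 of 10 inducible and 10 of 15 other cytosolic members, for 2 of 13 ER and 1 of 10 mitochondrial members and for 27 of all 69, beside 37.7% of all genes tested. Its median ratio to the mean of APAP libraries 1 and 2 was 1.48 for the inducible class, 1.18 for the other cytosolic class, 0.936 for the ER class and 0.92 for the mitochondrial class. Hspa8 is the constitutive cytosolic Hsp70. Hspa8 measured 417, 525 and 1387 CPM in the APAP libraries, 1193, 972 and 973 CPM after MSC and 1556, 1119 and 1036 CPM after HDF. APAP library 3 stood at 2.95 times the mean of the other APAP libraries, within the range of the cell-treated libraries, and Hspa8 gave a log2 fold change of 0.43 ± 0.40 (SE; adjusted p = 0.597) for MSC and a log2 fold change of 0.67 ± 0.40 (SE; adjusted p = 0.679) for HDF against APAP. Without that library, Hspa8 was called in both comparisons (log2 fold changes 1.15 and 1.38, adjusted p = 0.0187 and 0.0301), and so was Hsph1 (0.82 and 1.14, adjusted p = 0.0235 and 0.0252). Dnaja1 (0.70, adjusted p = 0.0147) and Dnajb2 (0.55, adjusted p = 0.0270) were then also called in MSC against APAP. The called members became 6 for MSC and 2 for HDF, where 4.24% and 0.172% of all genes were called, and the inducible class medians became 0.65 and 0.82. That library was singled out by the levels of these same genes, so these calls are no separate evidence. Leaving out other libraries took the log2 fold changes as low as 0.15 (MSC) and 0.38 (HDF) for Hspa8. For Hsph1 the lowest were 0.17 and 0.48. APAP library 3 also had the highest Kupffer cell marker sum of the 9 libraries, 270 CPM, and the highest macrophage marker sum, 82.3 CPM. Within the APAP group it was also highest in the neutrophil, cholangiocyte and T and NK cell marker sums. It was lowest there in the hepatocyte, sinusoidal endothelial, stellate cell and muscle marker sums. The part of any of these markers in these values was not tested.

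**Figure D4:**
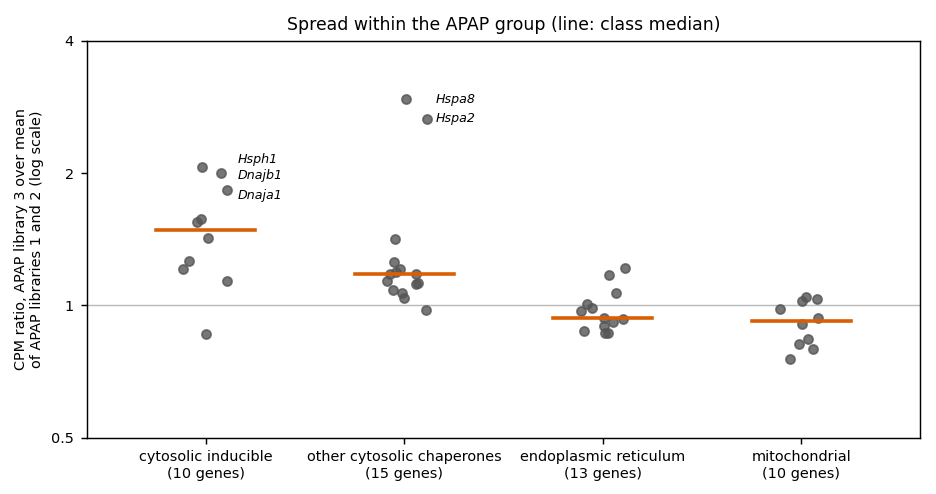
Ratio of the CPM in APAP library 3 to the mean of APAP libraries 1 and 2 (vertical axis, log scale) for each gene of 4 chaperone classes, with class medians as lines. Hspa8 at 2.95 and Hsph1 at 2.06 lie above 1, while the ER and mitochondrial medians are 0.936 and 0.92.

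The other cytosolic chaperones were not called in any comparison, and their medians were -0.013 for MSC against APAP, 0.097 for HDF against APAP and -0.098 for MSC against HDF. Hsp90ab1 measured 1174, 963 and 1193 CPM in the APAP libraries, 1026, 1072 and 1182 CPM after MSC and 1408, 1200.5 and 1235 CPM after HDF. HDF lay just above the other groups, with a log2 fold change of 0.21 ± 0.13 (SE; adjusted p = 0.685) against APAP. Dnajb2, a J protein that also binds ubiquitin chains, measured 46.7, 53.6 and 71.2 CPM in the APAP libraries, 71.03, 76.3 and 73.2 CPM after MSC and 86.3, 73.5 and 75.9 CPM after HDF. HDF libraries lay above APAP libraries (log2 fold change 0.46 ± 0.14 (SE), adjusted p = 0.535), again with APAP library 3 nearest. Without that library it was 0.64, with an adjusted p of 0.0653 in edgeR's quasi-likelihood test. With all libraries, MSC against APAP gave 0.36 ± 0.14 (SE; adjusted p = 0.149) for Dnajb2. Dnajb5, a relative of Dnajb1, measured 5.63, 7.99 and 7.08 CPM in the APAP libraries, 7.90, 7.16 and 8.26 CPM after MSC and 8.39, 9.28 and 9.85 CPM after HDF. HDF lay above both other groups, with a log2 fold change of 0.41 ± 0.15 (SE; adjusted p = 0.575) against APAP. Dnajc2, a J protein of the ribosome, measured 22.1, 30.5 and 30.9 CPM in the APAP libraries, 25.9, 25.6 and 25.9 CPM after MSC and 32.9, 32.8 and 30.7 CPM after HDF. MSC lay below HDF without overlap (log2 fold change -0.32 ± 0.12 (SE), adjusted p = 0.135). All 15 members of the class, which also holds Hspa4 and Hspa4l of the Hsp110 family, had log2 fold changes between -0.33 (Hspa1l) and 0.43 (Hspa8) for MSC against APAP. Hspa2, an Hsp70 best known from testis and chosen after its values were seen, shared the high APAP library 3 (ratio 2.66) and was low, at 1.10 to 2.995 CPM.

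No ER member was called in any comparison. Class medians were 0.0018 for MSC against APAP, 0.087 for HDF against APAP and -0.022 for MSC against HDF, with 0 of 13 called, 1 of 13 without overlap in the first (lower, beside 14.7% of all genes lower), 0 in the second (11.7% of all genes in either direction, 6.08% lower) and 1 in the third (lower, beside 16.4% of all genes lower). Fewer cells of a type and less RNA per cell cannot be told apart in these bulk libraries. Hspa5 measured 1506, 2098 and 1649.8 CPM in the APAP libraries, 2629, 2161 and 1762 CPM after MSC and 2064, 1798 and 1813 CPM after HDF. MSC libraries 1 and 2 were the highest of the 9, MSC library 3 was within the APAP range, and MSC against APAP gave a log2 fold change of 0.32 ± 0.17 (SE; adjusted p = 0.305). Hsp90b1 measured 1268, 1327 and 1125 CPM in the APAP libraries, 1616, 1469 and 1153 CPM after MSC and 1696, 1236 and 1161 CPM after HDF. The groups overlapped, and HDF library 1 was highest, with a log2 fold change of 0.19 ± 0.17 (SE; adjusted p = 0.579) for MSC against APAP.

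Among the J proteins that supply BiP, Dnajb9, Dnajb11 and Dnajc3 overlapped between the groups. Dnajb9 (ERdj4), which delivers misfolded proteins for degradation, measured 77.4, 103 and 109.8 CPM in the APAP libraries, 141, 111 and 102 CPM after MSC and 97.1, 98.3 and 116 CPM after HDF. Dnajb11 (ERdj3), which binds nascent chains, measured 211, 250.3 and 232 CPM in the APAP libraries, 303, 295 and 227 CPM after MSC and 239.8, 228 and 245 CPM after HDF. Dnajc3 (p58IPK), a BiP cochaperone known to restrain the kinase PERK, measured 439, 486 and 456 CPM in the APAP libraries, 505, 522 and 457 CPM after MSC and 468, 509.7 and 514 CPM after HDF. The overlap held for all 3 genes in all 3 comparisons. MSC against APAP gave a log2 fold change of 0.28 ± 0.16 (SE; adjusted p = 0.32) for Dnajb9, a log2 fold change of 0.25 ± 0.13 (SE; adjusted p = 0.268) for Dnajb11 and a log2 fold change of 0.11 ± 0.11 (SE; adjusted p = 0.625) for Dnajc3. HDF against APAP gave 0.11 ± 0.17 for Hspa5, 0.14 ± 0.17 for Hsp90b1, 0.10 ± 0.16 for Dnajb9, 0.040 ± 0.13 for Dnajb11 and 0.11 ± 0.11 for Dnajc3. So the 3 genes with an ER stress element above (Hspa5, Hsp90b1 and Dnajc3) passed no test.

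Dnajc10 (ERdj5), a J protein that reduces disulfide bonds, was the lowest of the class in MSC against APAP at a log2 fold change of -0.33 ± 0.14 (SE; adjusted p = 0.183), without overlap. The remaining ER members gave, in MSC against APAP, 0.050 for Hspa13, -0.048 for Dnajb12, -0.053 for Dnajb14 and 0.0018 for Dnajc1, and -0.048 for Dnajc14, -0.12 for Dnajc16 and -0.14 for Dnajc18. In HDF against APAP the 13 ran from -0.061 for Dnajc10 to 0.14 for Hsp90b1. In MSC against HDF they ran from -0.27 for Dnajc10 to 0.21 for Hspa5 and 0.21 for Dnajb11.

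Outside the 3 compartments, 3 members were called. Dnajc5 is the cysteine string protein, a J protein of secretory vesicles. Dnajc5 measured 92.6, 117 and 118 CPM in the APAP libraries, 76.8, 73.2 and 89.4 CPM after MSC and 122, 126 and 135 CPM after HDF. The MSC libraries lay below all others, and Dnajc5 was lower in MSC than in HDF (log2 fold change -0.68 ± 0.12 (SE), adjusted p = 0.00796), and lower than in the APAP group as well (log2 fold change -0.45 ± 0.12 (SE), adjusted p = 0.0468). The call against HDF was lost only without MSC library 2 among the 9 fits that left out 1 library (adjusted p = 0.0562). The call against APAP held in 2 of those 9, without APAP library 1 and without HDF library 1, and was also lost with limma-voom (adjusted p = 0.0548) and with a fit of only the groups compared (adjusted p = 0.0539).

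Dnajc22 is a J protein that spans the membrane. Dnajc22 measured 69.7, 74.6 and 68.1 CPM in the APAP libraries, 89.5, 98.3 and 95.1 CPM after MSC and 70.3, 83.9 and 81.04 CPM after HDF. MSC lay above both other groups, and Dnajc22 rose against APAP (log2 fold change 0.41 ± 0.10 (SE), adjusted p = 0.0311) but was not called against HDF (log2 fold change 0.27 ± 0.10 (SE), adjusted p = 0.107). The call was lost without any one of the 3 APAP or 3 MSC libraries (highest adjusted p = 0.133). Hspb7 is a small heat shock protein best known from heart and skeletal muscle. Hspb7 had 63, 54 and 32 raw counts in the APAP libraries, 5, 7 and 12 after MSC and 35, 27 and 12 after HDF, and in CPM it measured 1.14, 1.01 and 0.483 CPM in the APAP libraries, 0.0923, 0.132 and 0.211 CPM after MSC and 0.551, 0.439 and 0.217 CPM after HDF. Its MSC libraries lay below all others, and it fell against APAP (log2 fold change -2.56 ± 0.51 (SE), adjusted p = 0.0194), although its level was among the 4 lowest of the 69 members per kb. That call was lost without APAP library 1, MSC library 1 or MSC library 2 (highest adjusted p = 0.103). The 4 tested of 5 smooth and striated muscle marker genes were not called in that comparison (median -0.40). Acta2 (-0.99) and Actc1 (-1.10) were below 0, whereas Myh11 (0.21) and Tnnt2 (0.19) were above it. The summed level of these markers, most of it Acta2, was 14.4 to 46.0 CPM in APAP, 13.5 to 23.6 CPM in MSC and 9.63 to 25.5 CPM in HDF. Their part in the Hspb7 value was not tested.

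Of the remaining members with Hspb symbols, Hspb6 (Hsp20) measured 12.5, 16.4 and 17.7 CPM in the APAP libraries, 15.6, 16.4 and 16.7 CPM after MSC and 15.97, 20.5 and 23.1 CPM after HDF. HDF libraries 2 and 3 were highest, and HDF against APAP gave a log2 fold change of 0.35 ± 0.16 (SE; adjusted p = 0.583). Hspb11 measured 3.19, 3.10 and 2.97 CPM in the APAP libraries, 2.92, 3.27 and 3.10 CPM after MSC and 2.49, 2.39 and 2.66 CPM after HDF. HDF lay below both other groups, with a log2 fold change of -0.30 ± 0.17 (SE; adjusted p = 0.658) against APAP. Dnajc13 (RME-8), a J protein of endosomes, measured 51.7, 47.3 and 43.8 CPM in the APAP libraries, 37.00, 36.9 and 40.8 CPM after MSC and 43.9, 42.3 and 43.2 CPM after HDF. MSC lay below the other groups and missed the threshold against APAP (log2 fold change -0.32 ± 0.092 (SE), adjusted p = 0.0659). The 18 members with no assigned class include 4 pseudogenes, and apart from Dnajc5 and Dnajc22 none was called. Dnajc12, also chosen after its values were seen, helps fold aromatic amino acid hydroxylases. It varied from 16.8 to 51.0 CPM and had a high APAP library 3 as well (ratio 2.23).

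Related folding genes from lists chosen with the classes were mostly not called either. Of 26 cytosolic cochaperones and heat shock factors, 1 was called in MSC against APAP and 1 in MSC against HDF, both times Fkbp5, an Hsp90 cochaperone known as a target of the glucocorticoid receptor. Fkbp5 measured 129, 120.3 and 133 CPM in the APAP libraries, 63.3, 52.2 and 74.9 CPM after MSC and 130.3, 123 and 178 CPM after HDF. Every MSC library was below every other library, with a log2 fold change of -1.004 ± 0.16 (SE; adjusted p = 0.00978) against APAP and a log2 fold change of -1.18 ± 0.16 (SE; adjusted p = 0.00264) against HDF. The call against APAP was lost without MSC library 2 (adjusted p = 0.0636), and the call against HDF held in all 9 fits that left out 1 library. Hsf1, the heat shock transcription factor, measured 15.3, 19.6 and 25.1 CPM in the APAP libraries, 22.4, 23.3 and 24.2 CPM after MSC and 23.2, 23.1 and 25.3 CPM after HDF. It was not called, with a log2 fold change of 0.25 ± 0.15 (SE; adjusted p = 0.672) for HDF and a log2 fold change of 0.22 ± 0.15 (SE; adjusted p = 0.435) for MSC against APAP. None of the 8 subunits of the cytosolic chaperonin was called, and their medians were -0.13, -0.052 and -0.086 in the 3 comparisons in the order above.

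Of 25 genes for ER folding and the unfolded protein response, 24 were tested and 1 was called, Sec61b, a subunit of the channel through which proteins enter the ER. Sec61b measured 70.4, 97.6 and 72.5 CPM in the APAP libraries, 110.0, 121 and 95.1 CPM after MSC and 56.5, 78.9 and 72.1 CPM after HDF. MSC exceeded HDF by a log2 fold change of 0.65 ± 0.16 (SE; adjusted p = 0.029), and the call was lost without MSC library 1 or 2 or HDF library 1 or 3 (highest adjusted p = 0.131). The medians of this list were 0.23, 0.054 and 0.22. Log2 fold changes were above 0 for 22, 15 and 19 of the 24 (48.9%, 49.1% and 47.7% of all genes). Of 18 genes for mitochondrial import, proteolysis and folding factors, 0 were called, and their medians were -0.0058, -0.036 and 0.019.

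The libraries held 53267231 to 63175573 counts each. The 6 hepatocyte markers summed to 80064 to 103990 CPM in APAP, 88169 to 98179 CPM in MSC and 78564 to 106370 CPM in HDF, so the groups overlapped. Most of that sum was Alb, at 62366 to 86006 CPM. Within the list Cps1 was called higher in MSC than in HDF (log2 fold change 0.73 ± 0.16 (SE), adjusted p = 0.0213), and Ttr was higher in every MSC library than in the other 6 without passing the test (log2 fold change 0.58 ± 0.18 (SE), adjusted p = 0.0727 against APAP). In both MSC comparisons 4 of the 6 were above 0. Alb and Apoa1 were below it, at -0.024 and -0.078 against APAP and at -0.063 and -0.024 against HDF. Infiltrating macrophage markers (8 genes) summed to 58.6 to 82.3 CPM in APAP, 22.8 to 33.3 CPM in MSC and 62.0 to 71.1 CPM in HDF, and in MSC against APAP all 8 had log2 fold changes below 0, with 5 called lower (3.51% of all genes were). Neutrophil markers (4 tested of 5) summed to 8.62 to 11.5, 2.70 to 3.82 and 2.75 to 9.97 CPM in the same order, and Ly6g had 0 counts in 7 of 9 libraries. Sinusoidal endothelial markers (6 genes) summed to 152 to 230, 107 to 125 and 144 to 209 CPM, and in MSC against APAP all 6 had log2 fold changes below 0, with 2 called lower. The 4 cholangiocyte markers summed to 37.0 to 56.0 CPM in APAP, 33.1 to 47.1 CPM in MSC and 54.7 to 62.5 CPM in HDF, most of it Sox9. Epcam and Krt19 of that list were called higher in MSC than in HDF (log2 fold changes 1.13 and 1.25, adjusted p = 0.0164 and 0.017, where 4.78% of all genes were called higher). Krt7 was higher without a call (0.83, adjusted p = 0.079). Sox9 went the other way without overlap and was not called (-0.63, adjusted p = 0.063). The macrophage and endothelial sums were lower in the same MSC libraries in which Dnajc5, Dnajc13 and Hspb7 were lower and Hspe1, Hspd1 and Dnajc22 higher. Cps1, Epcam and Krt19 were higher in those libraries, whereas Sox9 was lower than in the HDF group and Alb and Apoa1 overlapped. The part of any of these markers in those values was not tested.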

How the data were processed

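The deposited count table holds whole-number counts per gene symbol that the authors made from their reads, and a second deposited table holds the same counts divided by size factors, a normalised signal that was used only to check the columns. The submitters' processing notes name HISAT2, Subread and DESeq2 with builds mm39 and GRCm39, with no versions, and the labels' protocols give an mRNA library kit on TRIZOL extracts. Strand use and the handling of reads from repeated sequences are not given in the sources used here. Columns carry the group and no replicate number, so libraries were numbered in column order, and the table repeats 24 symbol rows. Totals were 53267231 to 63175573 counts per library, so counting error is small except for members with few counts.

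Counts were fitted with edgeR 4.0.16 in R 4.3.3 (TMM scaling, filterByExpr with the groups, robust quasi-likelihood fit and test over all 9 libraries, Benjamini-Hochberg adjustment over 17582 genes, threshold 0.05, two-sided), which was first tested on simulated data. DESeq2 1.42.0, limma 3.58.1 (voom), RLE scaling, other count filters, fits of only the groups compared and fits without each library were alternatives. The members, classes and gene lists were chosen with earlier results of these data known, so class counts are descriptions. Values in every library are given for each called member, for fixed main chaperones, and for the 3 members with the smallest p in each other class. All members of the inducible, ER and mitochondrial classes have at least a fold change, and related lists are named only where called, plus Hsf1. Levels per kb used exon lengths of the GENCODE M21 annotation, and promoter sequences came from RefSeq on GRCm38.p6.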

Additional observations from a re-analysis of the deposited data

How the results depend on the processing

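With 3 libraries per group, the number of called members depended on single libraries. Leaving out 1 library at a time gave 0 to 6 called members for MSC against APAP, 0 to 2 for HDF against APAP and 0 to 6 for MSC against HDF, where both counts of 0 with MSC came without MSC library 2. The share of all genes called moved too, over 0.481% to 9.31%, 0.0% to 0.172% and 1.79% to 9.6% in the same order. The inducible class median ran from 0.15 to 0.65 for MSC against APAP and from 0.38 to 0.82 for HDF against APAP, highest without APAP library 3, and the ER median from -0.019 to 0.10 and from -0.015 to 0.13. The mitochondrial median stayed between 0.19 and 0.30 for MSC against APAP and between 0.21 and 0.32 for MSC against HDF. DESeq2 called 2 members for HDF against APAP (0.356% of all genes) and 8 for MSC against HDF (13.3% of all genes). For MSC against HDF, a fit of only those groups also called 8 (10.5% of all genes). In MSC against HDF each of these fits shared 5 with edgeR's main fit, and the cause was not tested. Alternatives gave 1980 values for 132 results of the main classes, the fixed chaperones and the members with the smallest p elsewhere, not of all members. Of these, 38 lost a call (36 by leaving out 1 library) and 18 gained one (8 by leaving out 1 library). A change of direction was counted only where the main or the alternative fit made a call, and there were 0. Outside that set, Hspa4l and Hspd1-ps3 gained calls in MSC against HDF under some alternatives. No paired analysis was possible because the columns carry no replicate numbers. Depth limits only members with few counts, such as Hspb7.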
